A study of Mus musculus with 8 samples.

Results

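The EGR and NR4A transcription factors are immediate early genes, a class that cells transcribe within minutes of a stimulus without first making new protein. Their expression was compared between neutrophils from lungs of mice given Streptococcus pneumoniae (SP) and from lungs given phosphate-buffered saline (PBS). The 10 genes considered were Egr1, Egr2 and Egr3, Nr4a1, Nr4a2 and Nr4a3, and the further immediate early genes Ier2, Ier3, Klf6 and Btg2. They were found by matching the RefSeq identifier of each row of the expression table to its gene symbol. Of the 10 genes, 9 had a row, 1 each, among 24625 rows in all. No row matched Klf6, which was not analysed here.

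All mice were wild-type C57BL/6J and 6 to 12 weeks old per the labels, while the study's methods give a narrower age range. The methods name purchased adult females, colonies made from them and sex-matched mice, without stating the sex of the mice studied. The left lung received SP or PBS through the trachea in a volume of 2.3 µl for each g of mouse, and lungs were collected 24 h later. Both groups of lungs were digested with enzymes at warm temperature and neutrophils were captured with Ly6G-binding magnetic beads. There were 4 PBS and 4 SP samples, each on its own Affymetrix Mouse Gene 1.1 ST array, and the methods describe a purity check of the pneumonia samples only. They report high purity there, with few other cells that mostly looked like alveolar macrophages, and high Ly6G mRNA in all samples. The labels do not say whether a sample came from 1 animal, but the study's figure legend describes each as taken from a mouse. The p-values measure the spread between these samples.

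EGR proteins are zinc finger transcription factors that bind GC-rich DNA and raise their own corepressors, Nab1 and Nab2. NR4A proteins are orphan nuclear receptors that act without a classical ligand, so their activity follows largely from how much of them is made. Both families are transcribed when MAP kinases, calcium or cAMP signals act through SRF and CREB, and several immediate early genes also respond to NF-κB. In neutrophils, NR4A2 and NR4A3 have been linked to cell survival.

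Promoter sequences are shown first for the NR4A genes, whose 3 members moved differently, and for Egr2 and Ier3, which rose. Each is the 250 bases before the transcription start, read in the direction of transcription from RefSeq on GRCm38.p6. Capitals mark matches on either strand to a CRE core (TGACG, part of the CREB site), an EGR site (GCGNGGGCG), a CArG box (the SRF site) or an NF-κB site. The NR4A windows lie at chr15:101266596-101266845 on the plus strand (Nr4a1), chr2:57124004-57124253 on the minus strand (Nr4a2) and chr4:48045055-48045304 on the plus strand (Nr4a3). The Egr2 window lies at chr10:67537619-67537868 and the Ier3 window at chr17:35821463-35821712, both on the plus strand.
Nr4a1: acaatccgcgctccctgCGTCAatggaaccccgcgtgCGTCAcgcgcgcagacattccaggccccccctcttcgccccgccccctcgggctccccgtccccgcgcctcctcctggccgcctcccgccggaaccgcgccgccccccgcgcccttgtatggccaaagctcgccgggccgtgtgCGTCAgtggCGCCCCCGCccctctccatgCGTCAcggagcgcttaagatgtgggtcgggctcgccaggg
Nr4a2: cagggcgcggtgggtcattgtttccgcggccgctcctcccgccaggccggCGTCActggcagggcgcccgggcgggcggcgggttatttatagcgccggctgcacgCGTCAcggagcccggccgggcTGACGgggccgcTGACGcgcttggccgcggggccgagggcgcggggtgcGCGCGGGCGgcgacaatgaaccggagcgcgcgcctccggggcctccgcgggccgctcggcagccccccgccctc
Nr4a3: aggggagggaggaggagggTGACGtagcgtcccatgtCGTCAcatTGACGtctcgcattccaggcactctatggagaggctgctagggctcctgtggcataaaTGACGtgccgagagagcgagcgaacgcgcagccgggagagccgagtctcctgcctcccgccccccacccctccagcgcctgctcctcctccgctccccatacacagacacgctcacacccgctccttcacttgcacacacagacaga
Egr2: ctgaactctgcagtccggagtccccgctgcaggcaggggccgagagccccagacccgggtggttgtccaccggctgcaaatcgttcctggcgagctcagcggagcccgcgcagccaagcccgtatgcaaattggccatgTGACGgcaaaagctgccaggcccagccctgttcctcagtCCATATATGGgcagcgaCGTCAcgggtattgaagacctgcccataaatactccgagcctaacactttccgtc
Ier3: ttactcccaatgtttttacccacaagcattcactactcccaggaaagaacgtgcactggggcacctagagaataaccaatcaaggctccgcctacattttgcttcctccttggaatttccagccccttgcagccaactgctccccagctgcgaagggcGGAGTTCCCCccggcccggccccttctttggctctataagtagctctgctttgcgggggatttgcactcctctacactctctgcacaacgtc

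The NR4A windows shared a feature. Each held 4 CRE cores, a number reached in 45 of 32851 windows (0.137%), whereas 17.8% of windows held at least 1. The NR4A windows are among those 45, and the count of 4 was taken from them. The 4 sites of Nr4a1 and Nr4a2 stood beside an EGR site, present in 4.7% of windows, and Nr4a3 had no EGR site in its window. The Egr2 window held a CArG box between bases -72 and -63 from the start (1.47% of windows) and 2 CRE cores. It was 1 of 5 windows given for Egr2, of which 3 overlapped and held the same motifs. Of the rest, 1 held 2 overlapping NF-κB matches and no CRE core or CArG box, and 1 held a different CArG box. The Ier3 window held an NF-κB site between bases -92 and -83, a motif present in 7.25% of windows. Btg2, not printed, held a full CRE (TGACGTCA, 1.55% of windows), which contains 2 of the cores, and an EGR site. The NR4A binding motif AAAGGTCA, present in 1.34% of windows, had no match in the windows of these genes. These matches describe letters in the sequence, and binding was not measured.

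Levels are normalised log2 values, so 1 unit is a 2-fold change, and they are comparable between samples for a gene but not between genes. Differences are SP minus PBS, with limma's standard error (SE) and a p-value adjusted by the Benjamini-Hochberg method over all 24625 rows. A gene is called when the adjusted p is at most 0.05. Much of the table differed between the groups. Of all rows, 44.1% were called, 21.5% as higher and 22.6% as lower in SP, and the median difference was 0.10. At a change of at least 2-fold, 17.6% of rows were called, 6.37% higher and 11.3% lower, and in 49% of rows the groups did not overlap.

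Against that background, 6 of the 9 measured genes were called, 5 higher (Egr1, Egr2, Egr3, Nr4a3 and Ier3) and 1 lower (Nr4a2). At 2-fold or more, 4 were higher and 1 was lower. The groups did not overlap in the same 6 genes, and the median difference over the 9 was 0.66. Nr4a1, Ier2 and Btg2 were not called. The 6 calls held when any 1 sample was left out.

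**Figure D1:**
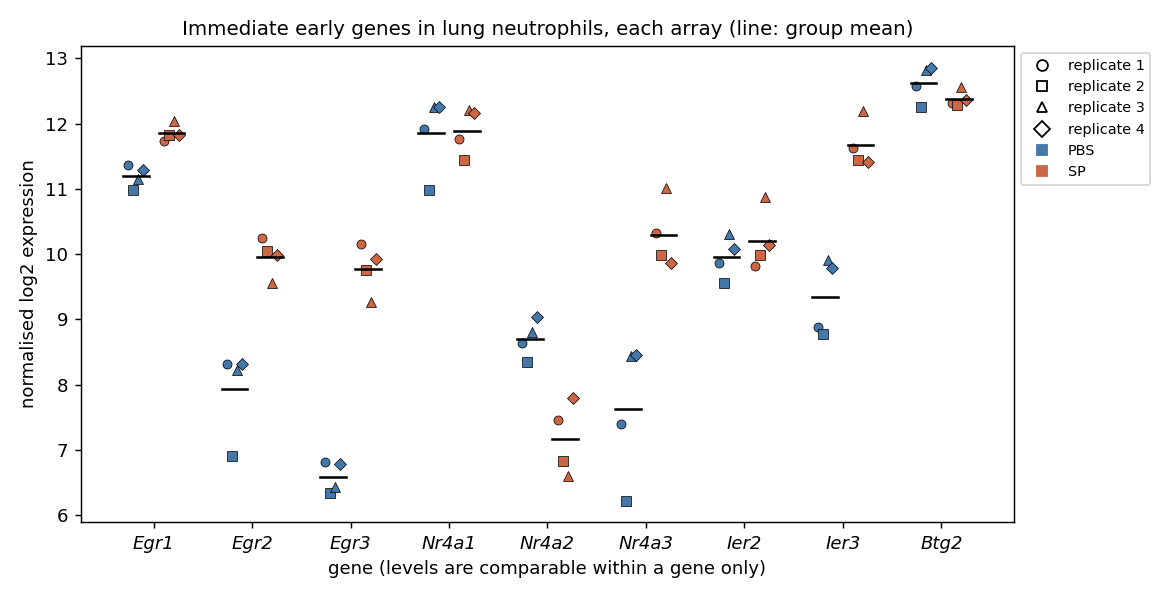
Normalised log2 expression (y axis) of the 9 genes (x axis) in each of the 4 PBS (blue) and 4 SP (orange) samples; symbols mark replicate numbers and lines mark group means. The groups separate for Egr1, Egr2, Egr3, Nr4a2, Nr4a3 and Ier3, with only Nr4a2 lower in SP, and they overlap for Nr4a1, Ier2 and Btg2.

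The 3 EGR factors were all higher in SP. Egr3 (NM_001289925), which shares its DNA site with Egr1 and Egr2 and restrains activation in T cells, had the widest change of the 9 genes. In PBS samples 1 to 4 its log2 level was 6.81, 6.33, 6.43 and 6.78, and in SP samples 1 to 4 it was 10.16, 9.75, 9.27 and 9.92. The lowest SP sample stood 2.45 log2 units above the highest PBS sample. The mean rose from 6.59 ± 0.25 to 9.77 ± 0.38 (SD, n = 4 each), a 9.10-fold difference of 3.19 log2 units (SE 0.20, limma adjusted p = 1.42e-05). Only 0.873% of rows had a larger difference in either direction.

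Egr2 (NM_010118), known for myelination and for macrophage and T cell programmes, measured 8.32, 6.90, 8.22 and 8.31 log2 units in PBS samples 1 to 4. In SP samples 1 to 4 the level was 10.25, 10.05, 9.56 and 9.99. PBS replicate 2 lay far below the other PBS samples, and every SP sample exceeded every PBS sample. The mean rose from 7.94 ± 0.69 to 9.96 ± 0.29, a difference of 2.02 log2 units or 4.07-fold (SE 0.32, limma adjusted p = 0.00145). Without PBS replicate 2 the difference was 1.68 (limma adjusted p = 0.000195).

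Egr1 (NM_007913), the archetype of the family and a target of growth factor and stress signals, was already well expressed in PBS. It measured 11.36, 10.98, 11.15 and 11.29 in PBS samples 1 to 4 and 11.73, 11.82, 12.04 and 11.83 in SP samples 1 to 4, in log2 units. The groups were tight and separated by 0.37. The difference of 0.66 log2 units (SE 0.11) was 1.58-fold, with a limma adjusted p of 0.00154, and was below the 2-fold mark. A larger difference was found in 27.8% of rows.

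The EGR genes differed from each other in the size of their response. Subtracting a pair of genes within each array and comparing SP with PBS gave an exact two-sided permutation test over the 70 arrangements of samples. All 6 pairs within the 2 families were compared. The response of Egr3 exceeded that of Egr1 by 2.53 log2 units, that of Egr2 exceeded Egr1 by 1.37, and that of Egr3 exceeded Egr2 by 1.16. Each reached exact p = 0.0286, the smallest this design allows, and 0.0286 after adjustment over the 6 pairs. The smaller gaps kept their sign when 1 sample was left out, with a range of 1.01 to 1.42 for Egr3 and Egr2 and 1.09 to 1.56 for Egr2 and Egr1. Their exact p could rise, as fewer samples leave fewer arrangements and a coarser test. Without any 1 of the SP samples the Egr3 and Egr2 gap was 1.12 to 1.20 with exact p = 0.0571. Without PBS replicate 2 the Egr2 and Egr1 gap was 1.09 with exact p = 0.0571.

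The NR4A genes moved in different directions. Nr4a3 (NM_015743, also called NOR1) measured 7.40, 6.22, 8.43 and 8.46 log2 units in PBS samples 1 to 4 and 10.32, 9.99, 11.01 and 9.87 in SP samples 1 to 4. The PBS samples were widely spread, with replicate 2 lowest, yet all lay at least 1.41 below the SP samples. The mean rose from 7.63 ± 1.06 to 10.30 ± 0.51, by 2.67 log2 units or 6.36-fold (SE 0.50, limma adjusted p = 0.00331). Without PBS replicate 2 the difference was 2.20 (limma adjusted p = 0.00238).

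Nr4a2 (NM_001139509, also called NURR1 and best known from dopamine neurons) fell. Its log2 level was 8.64, 8.34, 8.80 and 9.03 in PBS samples 1 to 4, and 7.46, 6.83, 6.60 and 7.79 in SP samples 1 to 4. All SP samples were below all PBS samples, by 0.56 at the closest. The mean decreased from 8.71 ± 0.29 to 7.17 ± 0.55, a difference of -1.54 log2 units or 2.90-fold lower (SE 0.27, limma adjusted p = 0.00236).

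Nr4a1 (NM_010444, also called NUR77), which restrains inflammatory genes in monocytes and macrophages, showed no detectable difference. PBS samples 1 to 4 measured 11.92, 10.99, 12.25 and 12.26 log2 units, and SP samples 1 to 4 measured 11.76, 11.44, 12.21 and 12.17. The groups overlapped, and both the lowest and the highest of the 8 values were PBS samples. The difference was 0.04 log2 units with a 95% confidence interval from -0.65 to 0.74 (limma adjusted p = 0.914). Its sign turned with the scaling and with single samples, as in another quantile normalization (-0.19) and without PBS replicate 2 (-0.25).

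Within the family, the response of Nr4a3 exceeded that of Nr4a2 by 4.21 log2 units and that of Nr4a1 by 2.63. The response of Nr4a2 differed from that of Nr4a1 by -1.58. Each of these had exact permutation p = 0.0286, before and after adjustment over the 6 pairs. With any 1 sample left out, they ranged from 3.78 to 4.56, from 2.45 to 2.86 and from -1.72 to -1.28. The exact p was then 0.0286 too, the smallest value that the fewer arrangements allow. The promoter windows that share 4 CRE cores belonged to 1 gene called higher, 1 called lower and 1 not called.

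**Figure D2:**
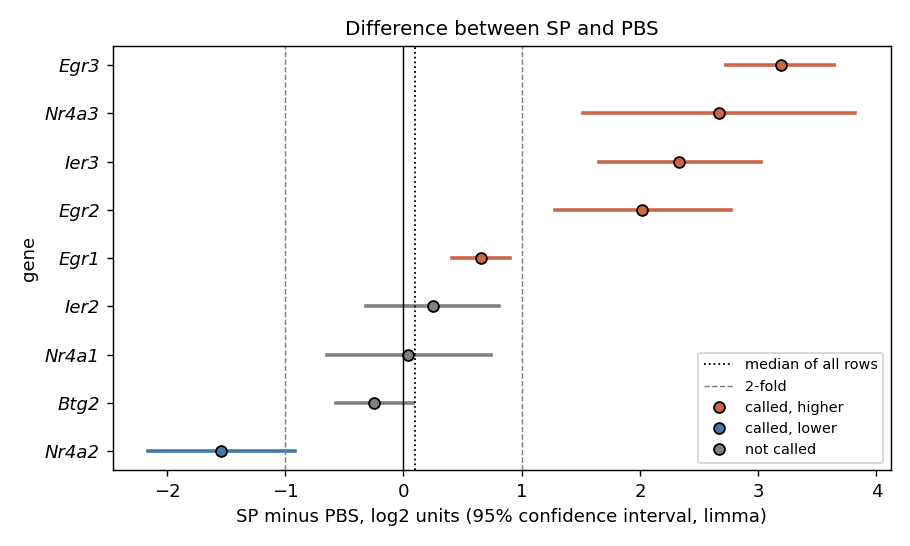
SP minus PBS difference in log2 units (x axis) for the 9 genes (y axis), with limma 95% confidence intervals; the dotted line is the median of all rows and dashed lines mark 2-fold. Egr3, Nr4a3, Ier3 and Egr2 lie beyond 2-fold higher, Egr1 between 0 and 2-fold, Nr4a2 on the lower side, and the intervals of Ier2, Nr4a1 and Btg2 cross 0.

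Among the other immediate early genes, Ier3 rose and Ier2 and Btg2 were not called. Ier3 (NM_133662, also called IEX-1), a survival factor induced by NF-κB and ERK signals, measured 8.88, 8.78, 9.91 and 9.78 log2 units in PBS samples 1 to 4. In SP samples 1 to 4 it measured 11.63, 11.44, 12.19 and 11.41. The PBS samples formed a lower and a higher pair, and the closest SP sample was 1.51 above the highest PBS sample. The mean rose from 9.34 ± 0.59 to 11.67 ± 0.36, by 2.33 log2 units or 5.03-fold (SE 0.30, limma adjusted p = 0.000453).

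Ier2 (NM_010499), a nuclear protein induced by serum and growth factors, measured 9.87, 9.56, 10.31 and 10.08 log2 units in PBS samples 1 to 4 and 9.82, 9.98, 10.87 and 10.14 in SP samples 1 to 4. The groups overlapped and SP replicate 3 alone stood above the PBS range. The difference was 0.25 log2 units with a 95% confidence interval from -0.32 to 0.81 (limma adjusted p = 0.407), and 0.03 without SP replicate 3.

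Btg2 (NM_007570), an antiproliferative protein that recruits the CCR4-NOT deadenylase to mRNA, measured 12.57, 12.26, 12.82 and 12.86 log2 units in PBS samples 1 to 4. In SP samples 1 to 4 it measured 12.31, 12.29, 12.56 and 12.37. The SP samples lay in the lower part of the PBS range. The difference was -0.25 log2 units with a 95% confidence interval from -0.57 to 0.08 (limma adjusted p = 0.175). It was called lower without PBS replicate 2 (-0.37, limma adjusted p = 0.0327) and was 0.04 when arrays were centred on their medians.

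PBS replicate 2 was the lowest PBS sample in all 9 genes, against 36.3% of all rows in which it was lowest. It was also lowest in 28 of 36 further immediate early genes, whose mean level there was 9.65 log2 units, against 10.19 to 10.50 in the other PBS samples. The same sample was lowest in 0 of 14 heat shock genes. Its mean level of 11 endothelial marker genes, 11.28, and of 17 lung epithelial marker genes, 11.83, was the highest of the PBS group. Its means of neutrophil markers (12.25), monocyte and interstitial macrophage markers (8.63) and T and NK cell markers (5.11) were the lowest of that group. Those of alveolar macrophage, fibroblast and smooth muscle, and B cell markers lay between the other PBS samples. In SP the order was mixed. SP replicate 3 was the highest SP sample in 6 of the 9 genes and the lowest in the other 3 (Egr2, Egr3 and Nr4a2), against 41.1% and 33.9% of all rows. Its neutrophil marker mean of 12.84 was the highest of all samples. It was the highest SP sample in 10 of these 11 markers, but not evenly. The widest gaps to the other SP samples were in Camp (10.94 against at most 8.17), Ltf (12.10 against at most 10.22) and Ngp (13.34 against at most 12.25). Csf3r was lowest of SP there (12.67). These 4 genes are named outside the rule.

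**Figure D3:**
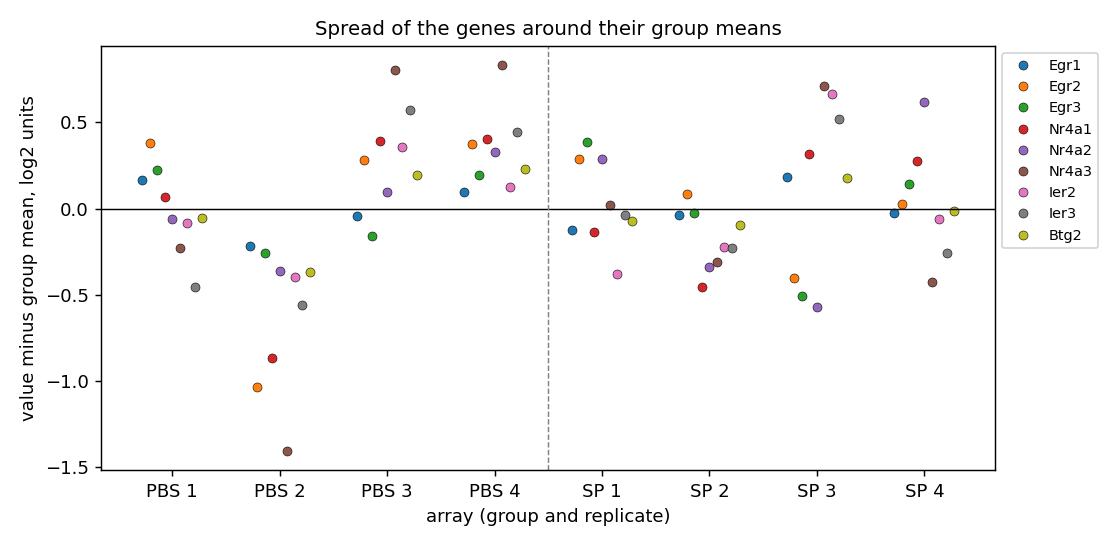
Each gene's log2 value minus its group mean (y axis) in the 8 samples (x axis), 1 colour per gene. In PBS replicate 2 all 9 genes lie below their group mean, and in SP replicate 3 Egr2, Egr3 and Nr4a2 lie below it while the other 6 lie above.

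The captured cells carried neutrophil RNA in both groups, and RNA of other lung cells that was not equal between them. The mean of 11 neutrophil markers was 12.25 to 12.50 log2 units in PBS and 11.69 to 12.84 in SP, with 3 of 11 called lower. That count was 8 without SP replicate 3, 2 without PBS replicate 2, 7 with another quantile normalization and 0 with arrays centred on their medians. Endothelial markers were lower in SP in 10 of 11 genes (sample means 10.25 to 11.28 in PBS and 8.49 to 9.67 in SP), and epithelial markers in 16 of 17 (11.15 to 11.83 and 9.28 to 10.19). Alveolar macrophage markers were lower in 8 of 11 genes and higher in 1, with sample means of 8.56 to 9.26 in PBS and 7.30 to 7.87 in SP. B cell markers were lower in 7 of 9 genes (7.30 to 8.12 and 5.98 to 6.93). Of the monocyte and interstitial macrophage markers 4 of 11 were called higher (8.63 to 9.42 in PBS and 8.59 to 9.92 in SP), of the T and NK cell markers 1 of 10 was called higher (5.11 to 5.61 and 5.17 to 6.06), and of the fibroblast and smooth muscle markers 2 of 11 were called lower (8.40 to 9.21 and 7.62 to 9.38). Single values of 3 Y-linked genes lay between 4.33 and 4.90, which is the level of an absent transcript if all the mice were female. The part of these other cells in the differences of the EGR and NR4A genes was not tested, and fewer cells of a type and less RNA per cell cannot be told apart in bulk samples. With arrays centred on the neutrophil markers, the same 6 genes were called, while the markers called lower came to 5 of 11 for endothelium, 12 of 17 for epithelium, 7 of 11 for alveolar macrophages and 5 of 9 for B cells. That scaling called fewer rows lower over the whole table, 2014 rather than 5554. The list medians moved less, from -1.46 to -1.20 for endothelium, -1.75 to -1.50 for epithelium, -1.50 to -1.25 for alveolar macrophages and -1.48 to -1.23 for B cells. With arrays centred on their medians, 6 of 10 T and NK cell markers were called higher, as were 14219 of all 24625 rows.

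Related genes were described from lists of the pathway. Of 36 other immediate early genes, 16 were called higher, 3 lower and 17 not, with a median difference of 0.47 against 0.10 over all rows. Tnfaip3, an inhibitor of NF-κB, rose by 2.64 log2 units (6.24-fold, limma adjusted p = 0.00543). Gadd45b, a stress sensor, rose by 2.51 (limma adjusted p = 0.000468), Maff, a small MAF factor, by 2.46 (limma adjusted p = 0.000514) and Rgs1, which dampens G protein signals, by 2.08 (limma adjusted p = 0.00351). Arc, known from neurons, was lower by -1.25 (limma adjusted p = 0.0062). Without PBS replicate 2 the list counted 15 higher and 4 lower with a median of 0.23, and without SP replicate 3 it counted 15 and 1 with a median of 0.34. With arrays centred on their medians it counted 22 higher and 1 lower, with a median of 0.75 against 0.38 over all rows. That scaling called 14219 of 24625 rows higher.

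Of Fos, Fosb, Jun, Junb and Atf3, classical immediate early factors of the AP-1 type, 0 were called higher by limma and 1 was called lower. Fos had a log2 level of 12.19 ± 0.36 in PBS and 11.55 ± 0.31 in SP and was called lower (-0.64, limma adjusted p = 0.0392), although the groups overlapped and the call was lost in 10 of 17 alternatives, the replicate block among them (limma adjusted p = 0.0587). Fosb had a difference of -1.21 and a limma adjusted p of 0.059, and was called lower in 7 of 17 alternatives. These were the replicate block (limma adjusted p = 0.0397), array weights (-1.74, limma adjusted p = 0.00401), a robust prior with trend (limma adjusted p = 0.0376), another quantile normalization (-1.34, limma adjusted p = 0.0413), dim rows left out (limma adjusted p = 0.0371), and leaving out PBS replicate 2 (-1.50, limma adjusted p = 0.0311) or SP replicate 4 (-1.62, limma adjusted p = 0.00713). Jun (0.20), Junb (0.46) and Atf3 (0.27) were not called, with limma adjusted p of 0.0917, 0.233 and 0.0526. With arrays centred on their medians, Jun (0.48) and Atf3 (0.55) were called higher, as were 14219 of 24625 rows. Atf3 was also called higher with array weights (0.26, limma adjusted p = 0.0169) and without SP replicate 3 (0.33, limma adjusted p = 0.0178). With another quantile normalization Jun was at -0.06. Egr4, the remaining EGR family gene and named here outside the rule, stayed between 4.58 and 4.76 log2 units, within the range of the Y-linked genes.

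The signalling list, of kinases and transcription factors that act on immediate early genes, split evenly. Of 25 genes measured, 9 were called higher, 8 lower and 8 not, with a median difference of 0.07. The kinases Rps6ka4 (MSK2, 2.13 log2 units, limma adjusted p = 6.76e-06), Map2k1 (MEK1, 1.63, limma adjusted p = 0.00064) and Mapkapk2 (MK2, 1.45, limma adjusted p = 3.66e-05) rose, as did the CREB coactivator Crtc2 (1.53, limma adjusted p = 8.81e-05). Srf, which binds the CArG box, was lower by -0.72 (limma adjusted p = 0.00428), and its coactivator Mrtfa by -1.35 (limma adjusted p = 0.000657). The protein kinase A subunit Prkaca (-1.17, limma adjusted p = 0.00496) and Mef2c (-1.08, limma adjusted p = 0.00135) were also lower. With arrays centred on neutrophil markers, Srf, Prkaca and Mef2c were no longer called and the list counted 8 higher and 1 lower. Over the whole table that scaling called 2014 rows lower rather than 5554.

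Of 14 partners of the EGR, NR4A and BTG proteins, 4 were called higher and 2 lower. With arrays centred on their medians the counts were 8 and 2, while 14219 of 24625 rows were called higher and 4036 lower. Nab1, the EGR corepressor, measured 9.63, 9.40, 9.66 and 9.85 log2 units in PBS samples 1 to 4 and 11.13, 11.01, 11.45 and 10.87 in SP samples 1 to 4. All SP samples were above all PBS samples, and the difference of 1.48 had a limma adjusted p of 0.000106. Nab2, the second corepressor, rose by 0.64 (limma adjusted p = 0.00126). Rxra, the retinoid receptor that pairs with Nr4a1 and Nr4a2, rose by 1.02 (limma adjusted p = 0.000555).

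Of 15 genes described as EGR targets, which include Nab1 and Nab2, 8 were called higher, 1 lower and 6 not, and the median difference was 0.64. The sample means of the list were 9.45 to 9.61 log2 units in PBS and 10.35 to 10.48 in SP. Ptges, the inducible prostaglandin E synthase, rose by 2.99 log2 units or 7.92-fold (limma adjusted p = 1.29e-05). Mmp14, a membrane-bound metalloproteinase, rose by 2.25 (limma adjusted p = 0.000566) and the adhesion molecule Icam1 by 1.96 (limma adjusted p = 1.53e-05). Pdgfa, a growth factor chain, was lower by -1.04 (limma adjusted p = 0.0035), a call lost with arrays centred on neutrophil markers (-0.79, limma adjusted p = 0.128). Several of these genes also respond to other factors, and binding by EGR proteins was not measured.

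The relatives of Klf6 and Btg2 did not move one way. Of 16 other Krüppel-like factors, 5 were called higher and 5 lower, with a median difference of 0.03. With arrays centred on their medians 9 were called higher and 3 lower with a median of 0.31. Over all rows that scaling called 14219 of 24625 higher, with a median of 0.38. With another quantile normalization 4 were called higher and 5 lower, with a median of -0.09. Without PBS replicate 2 the counts were 3 and 4. Klf10, induced by TGF-β, rose by 1.83 log2 units (limma adjusted p = 1.38e-05), and Klf12 (-2.68, limma adjusted p = 0.000143), Klf5 (-1.89, limma adjusted p = 0.000168) and Klf15 (-1.12, limma adjusted p = 0.000435) were lower. Of the 4 measured relatives of Btg2 in the BTG and TOB family, 0 were called by limma; at an unadjusted p under 0.05 there were 2, Btg1 (0.31) and Tob1 (-0.58). With another quantile normalization 2 of them were called lower and with arrays centred on their medians 1 was called higher.

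Heat shock genes, which like immediate early genes can respond to warm digestion of tissue, were mostly lower in SP, as Nr4a2 was. Egr1, Egr2, Egr3, Nr4a3 and Ier3 were higher. Of 14 heat shock genes, 0 were called higher and 11 lower. Sample means were 10.87 to 11.08 log2 units in PBS and 9.45 to 10.29 in SP. Hsph1 (-2.82, limma adjusted p = 0.0031), Hspb1 (-2.47, limma adjusted p = 0.00105), Hspa1a (-2.30, limma adjusted p = 0.00575) and Hspa1b (-1.94, limma adjusted p = 0.00981) had the widest differences. With arrays centred on neutrophil markers 5 of the 14 were called lower, with a list median of -0.85 against -1.10 in the deposited values. Rows called lower over the whole table then came to 2014 rather than 5554. Both groups were digested in the same way per the methods, and the part of digestion in the levels of the EGR and NR4A genes was not tested.

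**Figure D4:**
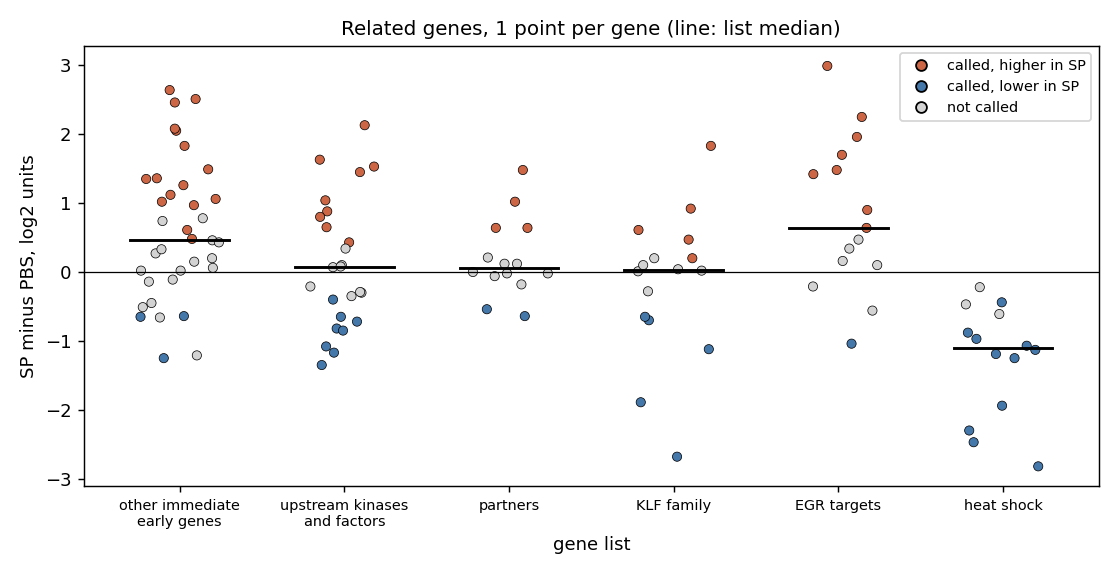
SP minus PBS difference in log2 units (y axis) of each gene in 6 lists (x axis), coloured by call, with the list median as a line. The medians are 0.47 for other immediate early genes, 0.07 for upstream kinases and factors, 0.06 for partners, 0.03 for the KLF family, 0.64 for EGR targets and -1.10 for heat shock genes.

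For each gene, the 2 most similar genes were found by the root mean square (RMS) difference between profiles over the 8 samples, after subtracting each gene's mean, among 19835 genes with a symbol. The profile of Nr4a3 was closest to those of Tnfaip3 (RMS 0.294 log2 units) and Zc3h12a (0.304), an RNase that degrades inflammatory mRNA. That of Ier3 was closest to Map3k8 (0.201), a kinase upstream of ERK, and Nfkb2 (0.206), an NF-κB subunit. For Egr3 the closest were B3gnt8 (0.216) and Car13 (0.217), and Cdc42ep2 (0.191) was among the 2 closest to Egr2. Nr4a2 was closest to Rac3 (0.187) and Ttll12 (0.202), and Egr1 to Creg2 and Spin1 (both 0.090). For the genes that were not called, the closest were Chst12 and G0s2 for Nr4a1 (both 0.151) and Ifitm1 (0.043) and Prkaa1 (0.045) for Btg2, and Cast (0.102) was among the 2 closest to Ier2. The RMS is smaller for genes that vary little, so it ranks neighbours of 1 gene and does not compare genes.

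Other scalings of the arrays left the 6 calls in place. Array medians were 6.06 to 6.20 in PBS and 5.78 to 5.91 in SP, so centring arrays on their medians moved the median difference of all rows from 0.10 to 0.38. Over the 18 alternative settings, the difference ranged from 3.06 to 3.47 log2 units for Egr3, from 2.14 to 2.95 for Nr4a3, from 2.04 to 2.61 for Ier3 and from 1.68 to 2.31 for Egr2. It ranged from 0.43 to 0.94 for Egr1 and from -1.74 to -1.24 for Nr4a2. A stricter test, of whether the difference exceeds 1 log2 unit, kept Egr3 (limma adjusted p = 0.000229) and Ier3 (0.019) and lost Egr2 (0.0869), Nr4a3 (0.0712), Nr4a2 (0.4) and Egr1 (1).

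**Figure D5:**
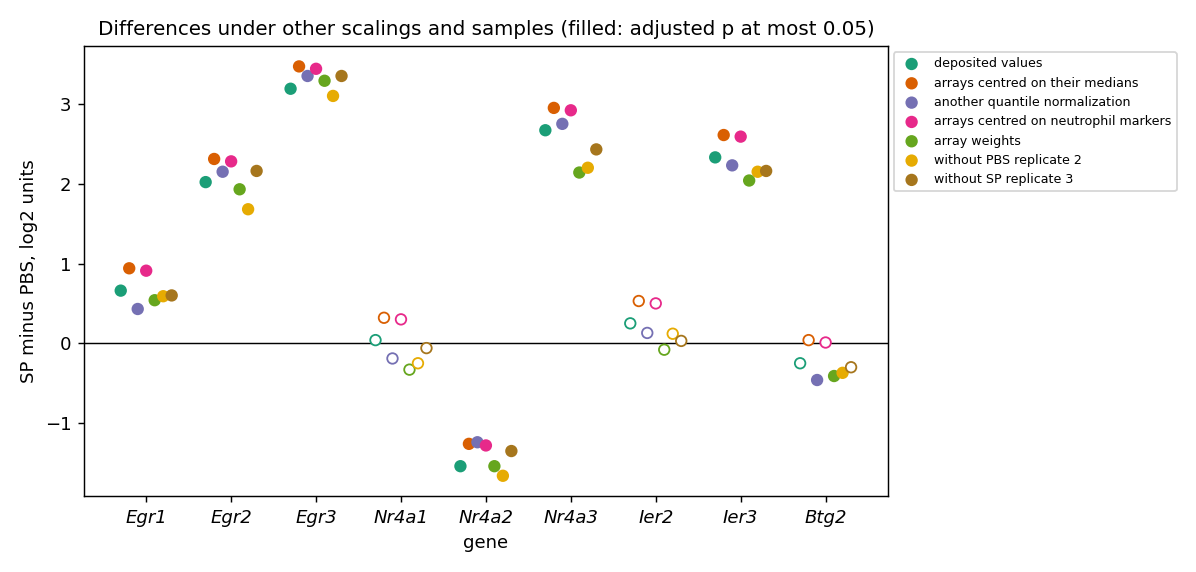
SP minus PBS difference in log2 units (y axis) of the 9 genes (x axis) with the deposited values, under 3 other scalings, with array weights, and without PBS replicate 2 or SP replicate 3; filled points have a limma adjusted p of at most 0.05. Egr1, Egr2, Egr3, Nr4a3 and Ier3 stay above 0 and Nr4a2 below it, while Nr4a1, Ier2 and Btg2 take both signs.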

How the data were processed

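RNA of 8 lung neutrophil samples, 4 PBS and 4 SP grouped by their titles, was hybridised to 1 array each. The authors deposited log2 values made by robust multi-array averaging (RMA), with quantile normalization, median polish and custom assignment of probesets to genes. The submitters' processing notes name Affymetrix Expression Console, RMA and Partek. Such values are relative within an array, and precision is limited by how many arrays there are. Row identifiers were matched to symbols of the RefSeq table on GRCm38.p6, and 80.9% of 24625 rows matched. Where a symbol had several rows, as for 78 symbols, the row with the highest mean was used. No 2 arrays were identical.

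SP and PBS were compared on all rows with limma 3.58.1 in R 4.3.3 (lmFit, eBayes) and the Benjamini-Hochberg adjustment. The fit was tested on simulated data. Pairs of genes, motifs and profile likeness were computed in Python 3.11.15. No filter on dim rows was used. The genes and lists were chosen with earlier results of these data known. Of each list, up to 4 genes per direction with the largest difference were named, if called and at least 2-fold, with Nab1, Nab2, Rxra, Srf, Fos, Jun, Junb, Fosb and Atf3 by role. Alternatives were the methods' t-test, other priors, weights, scalings and filters, a replicate block, a test against 1 log2 unit and leaving out each sample. Promoter windows were available for 7 of the 10 genes. A few genes that these rules select are not reported here.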

Additional observations from a re-analysis of the deposited data

Results flagged for a closer look

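Egr2 in PBS replicate 2 stood apart from the other PBS samples at a log2 level of 6.90. The gap to the nearest PBS sample was 0.925 of the range of the group, above Dixon's critical value for 4 samples at the 95% level. It was the only value to do so among 18 groups, 9 genes in 2 conditions each, and chance gives about 1 in 20 groups.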

How the results depend on the processing

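Directions of Egr1, Egr2, Egr3, Nr4a2, Nr4a3 and Ier3 held in all 18 alternatives, and all 6 calls held in 17 of the 18. The exception was limma's test against a difference of 1 log2 unit, with 2 of 9 genes called rather than 6, 2 at least 2-fold higher rather than 4, 0 at least 2-fold lower rather than 1, and 1572 rather than 10860 rows of the table (1572 rather than 4341 at 2-fold). Median-centred arrays gave 18255 rows, 14219 of them higher in SP, and arrays centred on neutrophil markers gave 4766. The replicate block gave 6 genes and changed no call among the 9. The labels do not say whether the replicate numbers pair the samples. The correlations of deviations between same-numbered samples were 0.0156, 0.0304, 0.35 and -0.274, and only replicate 3 matched its own number best. With 4 samples a group, these correlations cannot decide whether the samples were paired. Nr4a1 turned to -0.33 with array weights and -0.19 with another quantile normalization, and ranged from -0.25 to 0.19 when 1 sample was left out, below 0 without PBS replicate 2, SP replicate 3 (-0.06) or SP replicate 4 (-0.05). Ier2 turned to -0.08 with array weights. Btg2 turned to 0.04 with median-centred arrays and 0.01 with arrays centred on neutrophil markers, and was called lower with array weights (-0.41, limma adjusted p = 0.0123) and another quantile normalization (-0.46, limma adjusted p = 0.00795). The cause was not tested. At 4 samples a group, the deposited values do not exclude differences inside the intervals given for Nr4a1, Ier2 and Btg2.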
